A study of Mus musculus with 216 samples.

Results

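Genes of meiosis, of the piRNA pathway and of other germ cell functions were examined for H3K9me3, the histone mark of constitutive heterochromatin, in mouse embryonic stem cells. The 38 genes were taken from a list by name, out of 21938 protein-coding genes. The list was chosen with earlier results of these data known. It comprised 15 meiosis genes, 12 genes of the piRNA pathway and germ granules, and 11 other germ cell genes. Each gene was taken at its GENCODE vM21 body plus 1 kb upstream, and every deposited H3K9me3 domain that met this span was kept. A domain that came within 1 kb of the gene start, on either side, is called a promoter domain, and any other a body domain.

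All samples came from the dTKO line, whose labelled genotype is floxed for Suv39h1 and Setdb1 on both alleles and null for Suv39h2 (Suv39h1fl/fl; Suv39h2-/-; Setdb1fl/fl), so that every time point lacks Suv39h2. SUV39H1, SUV39H2 and SETDB1 are histone H3 lysine 9 methyltransferases. The medium received 100 µg/ml auxin and 0.5 µM dTAG13, drugs that mark degron-tagged proteins for the proteasome, and cells were collected 0, 1, 3, 12, 24 or 48 h later. The 216 sequencing runs cover H3K9me3, HP1b and their inputs, from 3 biological repeats at each of the 6 times with 3 runs per library. The labels do not say which proteins carry the degrons, whether the floxed alleles were deleted, or whether the line is a single clone. The study asked how H3K9me3 and HP1b decay after the methyltransferases are removed, with 0 h as the baseline.

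The values are the authors' decay classes, in words: each H3K9me3 domain is fast, intermediate, slow or residual. Each domain has 1 class for the whole time course, and there are 0 columns with values of single samples. The reads behind a class, its spread over biological repeats and any test over samples therefore cannot be given, and counts below stand beside the same counts over all protein-coding genes. The residual class is named as deposited, since the sources used here give neither the limits between classes nor its rank among them. On the autosomes, X and Y lay 42890 domains, of which 71.5% were intermediate, 20.5% slow, 4.57% residual and 3.49% fast. RNA, DNA methylation and HP1b at these genes were not analysed here.

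Germline genes are switched on in germ cells and kept silent in most other cells. Meiotic chromosomes pair along the synaptonemal complex, which is built on a cohesin-based axis, and exchange DNA at programmed breaks. piRNAs are small RNAs bound by Piwi proteins, and with Tudor domain scaffolds and RNA helicases in germ granules they direct the silencing of transposons in the male germ line. In embryonic stem cells many promoters of such genes are CpG-rich and are repressed by DNA methylation, by SETDB1, and by a variant Polycomb complex that holds E2F6 and the E-box binding pair MGA and MAX. STRA8, a factor of meiotic entry, binds promoters of meiotic genes in germ cells.

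The promoter sequences that the domains lay on are shown here for 7 genes, because the promoter domains sat mostly on unrepeated sequence. The CpG content of the printed stretches varied and is given below. All are RefSeq sequences on GRCm38.p6 and run 5′ to 3′ on the strand of the gene, up to 250 bases before the RefSeq start, with bases in coding-gene exons left out. Capitals mark an E2F motif (TCCCGC) or an E-box (CACGTG) on either strand, and the remaining bases are in lower case. Sycp2 (chr2:178407686-178407908, minus strand), Mov10l1 (chr15:88982744-88982908, plus strand), Tdrkh (chr3:94412994-94413243, plus strand), Tuba3a (chr6:125286082-125286331, minus strand) and Mael (chr1:166238748-166238994, minus strand) are among those whose whole promoter lay in a domain, taken in order of how close the domain's midpoint was to the gene start. Taf7l (chrX:134476491-134476740, minus strand), at the fast domain, and Spata22 (chr11:73329597-73329740, plus strand), at a residual one, were added after their classes were seen.
Sycp2: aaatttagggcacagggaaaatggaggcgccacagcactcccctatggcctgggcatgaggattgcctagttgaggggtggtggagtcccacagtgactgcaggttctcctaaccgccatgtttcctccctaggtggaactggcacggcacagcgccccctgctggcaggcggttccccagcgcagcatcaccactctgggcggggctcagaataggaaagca
Mov10l1: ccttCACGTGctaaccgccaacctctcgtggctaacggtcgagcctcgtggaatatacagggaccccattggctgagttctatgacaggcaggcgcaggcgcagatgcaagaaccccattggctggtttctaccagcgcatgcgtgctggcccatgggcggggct
Tdrkh: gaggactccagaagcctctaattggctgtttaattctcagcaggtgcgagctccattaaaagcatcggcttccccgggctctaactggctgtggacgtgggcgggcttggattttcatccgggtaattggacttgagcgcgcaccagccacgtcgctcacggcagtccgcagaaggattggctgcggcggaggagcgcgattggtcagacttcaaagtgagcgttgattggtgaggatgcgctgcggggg
Tuba3a: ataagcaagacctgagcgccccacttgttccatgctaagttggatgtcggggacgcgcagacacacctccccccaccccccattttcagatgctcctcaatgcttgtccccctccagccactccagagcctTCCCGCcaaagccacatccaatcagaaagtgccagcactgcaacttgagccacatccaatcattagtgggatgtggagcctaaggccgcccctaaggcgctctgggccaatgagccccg
Mael: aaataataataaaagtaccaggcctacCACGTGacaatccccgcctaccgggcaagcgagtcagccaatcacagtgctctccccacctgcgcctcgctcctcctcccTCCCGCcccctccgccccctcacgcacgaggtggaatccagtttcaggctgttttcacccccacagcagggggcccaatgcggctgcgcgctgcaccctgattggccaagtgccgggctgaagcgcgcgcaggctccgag
Taf7l: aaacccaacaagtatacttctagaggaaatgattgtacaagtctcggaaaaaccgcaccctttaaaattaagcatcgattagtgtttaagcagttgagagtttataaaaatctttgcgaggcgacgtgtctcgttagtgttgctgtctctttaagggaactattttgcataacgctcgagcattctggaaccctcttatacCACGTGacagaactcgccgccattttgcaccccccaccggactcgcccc
Spata22: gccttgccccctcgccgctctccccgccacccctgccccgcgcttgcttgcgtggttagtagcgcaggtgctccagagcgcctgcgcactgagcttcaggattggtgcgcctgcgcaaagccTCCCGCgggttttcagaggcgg

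For comparison, 2 germline genes without a promoter domain are shown in the same way, Asz1 (chr6:18109062-18109311, minus strand) and Ddx43 (chr9:78395527-78395776, plus strand). They come first by alphabet among those genes and replace Ddx4, which had a promoter domain, and Stra8, whose window lies in an exon. The observed over expected CpG ratio (1 where CpG is as frequent as its bases predict) was 0.901 and 0.845 in the printed stretch. In the printed stretches with a promoter domain it was 0.343 at Sycp2, 0.403 at Tuba3a, 0.726 at Mov10l1 and 0.756 at Mael. It was 0.818 at Spata22, 0.921 at Tdrkh and 1.134 at Taf7l. In windows of 300 bases, the 11 germline genes without a promoter domain ranged from 0.430 at Stra8 to 1.083 at Smc1b.
Asz1: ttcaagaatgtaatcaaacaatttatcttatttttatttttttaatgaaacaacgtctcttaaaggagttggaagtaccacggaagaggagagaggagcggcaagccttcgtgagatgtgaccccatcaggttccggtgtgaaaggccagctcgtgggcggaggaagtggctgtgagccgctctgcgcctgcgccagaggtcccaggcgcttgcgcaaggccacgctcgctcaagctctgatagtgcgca
Ddx43: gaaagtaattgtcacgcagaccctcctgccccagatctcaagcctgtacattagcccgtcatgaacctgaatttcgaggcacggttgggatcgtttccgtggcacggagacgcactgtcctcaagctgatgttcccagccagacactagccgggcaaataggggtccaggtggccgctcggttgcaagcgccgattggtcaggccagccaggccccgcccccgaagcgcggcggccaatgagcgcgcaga

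H3K9me3 domains lay on the promoters of 22 of the 38 germline genes (57.9%), against 4.7% of all protein-coding genes. Including bodies, 28 of 38 had a domain (73.7%), against 24.3% of all. The genes were chosen with earlier results of these data known, so these contrasts describe this list only. Among other genes of the same pathways, 5 of 30 meiosis genes (16.7%) and 2 of 18 piRNA pathway genes (11.1%) had a promoter domain. Of the 38, 6 genes (15.8%) had body domains only, against 19.6% of all protein-coding genes. That share leaves out every gene with a promoter domain, so it cannot show whether bodies match the background. In all, 39 domains met the 38 genes, 22 at promoters and 17 in bodies, so that 56.4% were promoter domains, against 9.42% (989 of 10499) of the domains on all protein-coding genes. The germline genes were longer, with a median body of 33.5 kb against 17.4 kb, and 26.3% had a body domain against 21.0%.

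**Figure D1:**
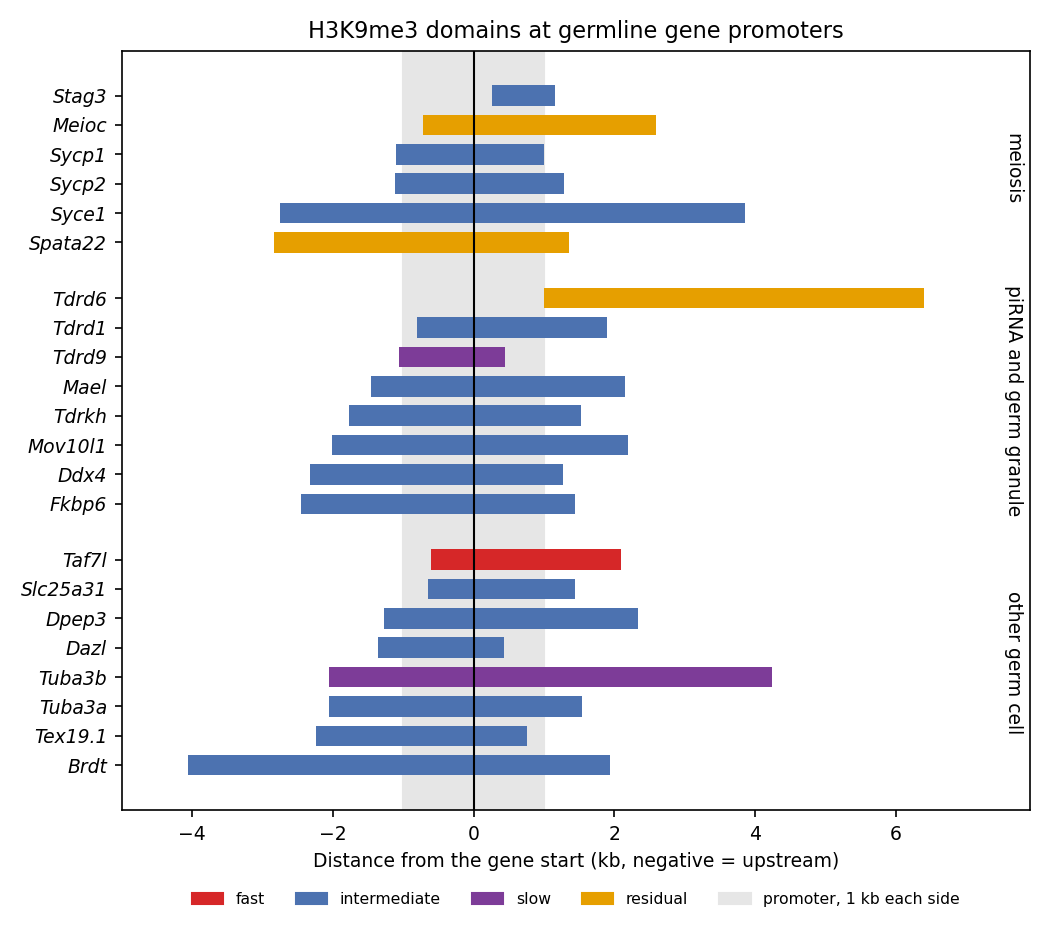
Span of the 22 promoter domains in kb from the gene start (x axis, negative is upstream), 1 bar per gene, by gene group and coloured by decay class. In 20 of 22 the bar crosses the gene start, and those of Stag3 and Tdrd6 begin downstream of it.

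The promoter domains were centred near the gene start. Their median width was 3.45 kb (0.9 to 6.6 kb), close to the 3.3 kb of all promoter domains and the 3.0 kb of all domains. Their median edges lay at -1408.5 and 1534 bp from the gene start. The domain covered the gene start in 20 of 22 (90.9%), against 540 of 1035 pairs of gene and promoter domain over all protein-coding genes (52.2%). The midpoint lay within 1 kb of the start in 19 (86.4%) against 30.5%, and the median distance from midpoint to start was 527 bp against 1576.5 bp. Domains lie on a grid of 300 bp, so that each edge is known to that step only. Where RefSeq gives a start for the gene, in 21 of the 22, that start also lay inside the domain.

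**Figure D2:**
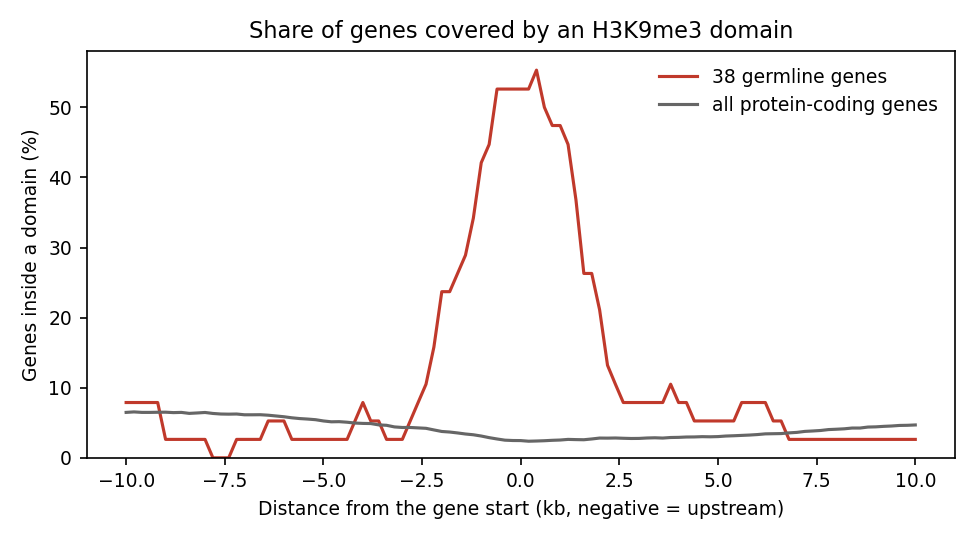
Share of genes (y axis, %) inside an H3K9me3 domain at each distance from the gene start (x axis, kb, in steps of 0.2 kb), for the 38 germline genes and all protein-coding genes. The germline genes peak at 55.3% at 0.4 kb and stand at 7.89% at -10 kb, while all protein-coding genes stand at 2.46% at the start and 6.48% at -10 kb.

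By position, 20 of 38 germline genes (52.6%) were inside a domain at the gene start, 16 (42.1%) at 1 kb upstream and 18 (47.4%) at 1 kb downstream. At 3 kb upstream 1 gene was inside a domain, and at 3 kb downstream 3. Over all protein-coding genes the share ran the other way, with 2.46% at the start, 3.11% at 1 kb upstream and 6.48% at 10 kb upstream.

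Most of the promoter domains were intermediate. Of the 22, 16 were intermediate (72.7%), 3 residual (13.6%), 2 slow (9.09%) and 1 fast (4.55%). Over the 989 domains at protein-coding promoters, 51.7% were intermediate, 25.9% residual, 18.9% slow and 3.54% fast. Counted over genes, 2.41% of all protein-coding genes had an intermediate promoter domain, 1.22% a residual, 0.898% a slow and 0.187% a fast one. Over all domains the intermediate share was 71.5%, close to that of the germline promoter domains.

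**Figure D3:**
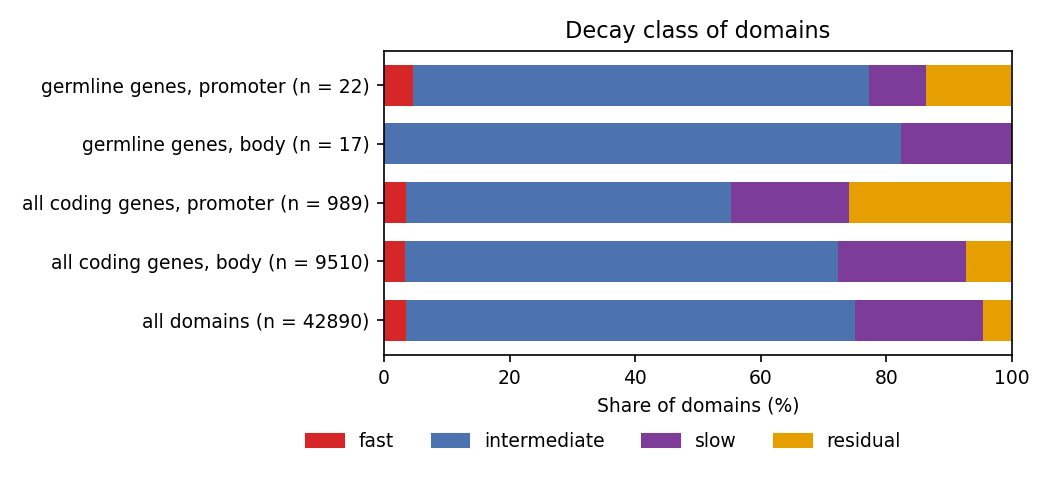
Share of domains (x axis, %) in each decay class for promoter and body domains of the germline genes, promoter and body domains of all protein-coding genes, and all domains, with the number of domains beside each bar. Intermediate is the largest class in every bar, at 72.7% of germline promoter domains and 51.7% of all promoter domains.

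Chromosomes 8 and 11 bear on these class shares. On them, 58.7% of the 225 domains at protein-coding promoters were residual and 16.9% intermediate. Of the germline genes, 6 lie there and 4 had a promoter domain: Meioc and Spata22 on chromosome 11, both residual, and Tex19.1 on 11 and Dpep3 on 8, both intermediate. Without the pair of chromosomes, 14 of 18 germline promoter domains were intermediate (77.8%), 2 slow, 1 fast and 1 residual (5.56%), against 61.9% intermediate and 16.2% residual of 764 over all protein-coding genes. The share of genes with a promoter domain was then 18 of 32 (56.2%) against 4.14%.

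Among the 15 meiosis genes, 6 (40.0%) had a promoter domain, against 8 of 12 (66.7%) piRNA and germ granule genes and 8 of 11 (72.7%) other germ cell genes. Each share stood above the 4.7% of all protein-coding genes. The genes were chosen with earlier results of these data known, so these shares describe the list only. The groups are small, and their order was not tested. Among other genes of the same pathways the meiosis genes had the larger share, 16.7% of 30 against 11.1% of 18 piRNA pathway genes. The meiosis genes held 6 promoter and 9 body domains, the piRNA genes 8 and 7, and the other germ cell genes 8 and 1. Of the 9, 5 lay in 1 gene, Sycp1. Counted by gene, 4 of 15 meiosis genes (26.7%) had a body domain, 5 of 12 piRNA genes (41.7%) and 1 of 11 other germ cell genes (9.09%). The share was 21.0% over all protein-coding genes.

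The synaptonemal complex genes had promoter domains at 3 of 4 members, all intermediate. Sycp1, the transverse filament protein of the complex, had a domain of 2.1 kb on chromosome 3 (102935101 to 102937200), from -1.10 to 1.00 kb around its start. The body of Sycp1 held 5 more intermediate domains, of 1.8 to 5.7 kb, between 46.9 and 108.1 kb from the start. Those 5 were 76.4 to 100% repeat sequence, against 8.0% in the promoter domain, and all 6 domains of the gene were in the same class. Sycp2, an axial element protein, had one of 2.4 kb on chromosome 2 (178406401 to 178408800), from -1.11 to 1.28 kb. Syce1, a central element protein, had the widest of the 22, 6.6 kb on chromosome 7 (140784001 to 140790600), and 51.2% of it was repeat sequence. Sycp3, the other axial element protein, had no domain, and the nearest one lay 159 kb upstream of its start.

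Of the 4 axis and cohesin genes, 1 had a promoter domain (25.0%), against 4.7% of all protein-coding genes. It was that of Stag3, a meiosis-specific cohesin subunit, and the narrowest of the 22 promoter domains. This domain of 0.9 kb on chromosome 5 (138280501 to 138281400) began 0.261 kb downstream of the start. Smc1b, another meiosis-specific cohesin subunit, had an intermediate domain of 3.3 kb in its body, 45.1 to 48.4 kb from the start. Hormad1 and Hormad2, HORMA domain proteins of the unsynapsed axis, had none. Measured from the gene start, the nearest domain lay 132 kb upstream for Hormad1 and 187 kb downstream, beyond the far end of the gene, for Hormad2.

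Meiotic entry and recombination genes gave both residual domains of the meiosis group. Meioc, which keeps germ cells in the meiotic programme, had a residual domain of 3.3 kb on chromosome 11 (102663001 to 102666300), from -0.715 to 2.58 kb, which also holds the RefSeq start 1.87 kb from the GENCODE start. Spata22, a partner in single-strand DNA binding at recombination sites, had a residual domain of 4.2 kb on the same chromosome (73326901 to 73331100), from -2.84 to 1.36 kb. That domain also met the protein-coding genes Aspa and Gm49340. Both Meioc and Spata22 lie on the chromosome where residual domains are frequent. Stra8, Meiob, the binding protein that works with SPATA22, and Majin, which anchors meiotic telomeres to the nuclear envelope, had no domain. For Majin an intermediate domain of 0.9 kb ended 3.49 kb upstream of the start.

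Body domains alone were found at Tex11, an X-linked crossover factor, and Zcwpw1, a histone reader at recombination sites. Tex11 had 2 intermediate domains, of 2.4 and 1.5 kb, in which repeats made up 100% and 99.0% of the sequence. Zcwpw1 had a slow domain of 9.0 kb on chromosome 5 (137809201 to 137818200), 21.4 to 30.4 kb from the start.

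In the piRNA group, Ddx4, the germ cell RNA helicase VASA, had an intermediate domain of 3.6 kb on chromosome 13 (112651201 to 112654800), from -2.33 to 1.27 kb. Mov10l1, the helicase that processes piRNA precursors, had an intermediate promoter domain of 4.2 kb on chromosome 15 (88980901 to 88985100), from -2.01 to 2.19 kb. The same gene held a slow domain of 10.8 kb in its body, from 48.7 to 59.5 kb, with 97.1% repeat sequence against 22.2% in the promoter domain. Piwil2, the Piwi protein MILI, had none, and the nearest domain began 234 kb downstream of its start, beyond the far end of the gene.

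The Tudor domain genes had a promoter domain at 4 of 5 and covered 3 classes. Tdrd1, a germ granule scaffold, was intermediate, with 2.7 kb on chromosome 19 (56825401 to 56828100), from -0.808 to 1.89 kb. Tdrkh, a mitochondrial protein of piRNA trimming, was intermediate, with 3.3 kb on chromosome 3 (94411501 to 94414800), from -1.77 to 1.53 kb. Tdrd9, a helicase, had a slow promoter domain of 1.5 kb on chromosome 12 (111970501 to 111972000), from -1.06 to 0.441 kb, and 3 intermediate domains in its body, which began 23.2, 47.5 and 86.8 kb from the start. Of the 38 genes, only Sycp1, Mael, Mov10l1 and Tdrd9 held both promoter and body domains. In Tdrd9 and Mov10l1 these differed in class, with the slow domain at the promoter of Tdrd9 and in the body of Mov10l1. Tdrd6, a scaffold of the chromatoid body, had a residual domain of 5.4 kb on chromosome 17 (43623901 to 43629300), from 0.999 to 6.40 kb. Only 2 bp of that domain lie within 1 kb of the gene start, so Tdrd6 is at the very edge of the promoter definition, and the domain lies downstream over an exon of the gene. Stk31, a kinase-like Tudor domain protein, had an intermediate body domain of 4.2 kb, from 20.1 to 24.3 kb.

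Of the other piRNA partners, Mael, a germ granule protein needed for transposon silencing, had an intermediate domain of 3.6 kb on chromosome 1 (166236601 to 166240200), from -1.45 to 2.15 kb, and a second intermediate one of 1.5 kb in its body. Fkbp6, a co-chaperone of piRNA loading, had an intermediate domain of 3.9 kb on chromosome 5 (135348601 to 135352500), from -2.46 to 1.44 kb. Asz1, a mitochondrial protein of piRNA biogenesis, had a slow domain of 4.2 kb in its body and none at the promoter. Tex15, needed for piRNA-directed DNA methylation, had none, and a slow domain ended 9.14 kb upstream of its start.

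Germ cell regulators outside both pathways gave the single fast domain. Taf7l, a germ cell paralogue of a TFIID subunit, had a fast domain of 2.7 kb on X (134474401 to 134477100), from -0.610 to 2.09 kb, and the nearest other domain was 195 kb away. Of the 40 domains at protein-coding promoters on X, 20.0% were fast, so this domain lies where fast domains are frequent. Dazl, an RNA-binding regulator of translation, was intermediate, with 1.8 kb on chromosome 17 (50293201 to 50295000), from -1.36 to 0.435 kb. Brdt, the testis reader of acetylated histones, was intermediate over 6.0 kb on chromosome 5 (107327101 to 107333100), reaching from -4.06 to 1.94 kb. Tex19.1, which restrains retrotransposons in germ cells, was intermediate over 3.0 kb on chromosome 11 (121143901 to 121146900), from -2.24 to 0.757 kb. Ddx43, a DEAD-box helicase, had none.

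Among testis paralogues and surface proteins, Slc25a31, the testis ADP/ATP carrier, had an intermediate domain of 2.1 kb on chromosome 3 (40708201 to 40710300), from -0.654 to 1.45 kb. Dpep3, a testis dipeptidase, had an intermediate domain of 3.6 kb on chromosome 8 (105977101 to 105980700), from -1.27 to 2.33 kb, with the nearest other domain 443 kb away. Tuba3a and Tuba3b are near-identical testis alpha-tubulins on chromosome 6, and reads could be shared between them. Tuba3a had an intermediate domain of 3.6 kb (125284501 to 125288100), from -2.06 to 1.54 kb. Tuba3b had a slow one of 6.3 kb (145613701 to 145620000), from -2.06 to 4.24 kb, that covered 78.0% of the gene and its 1 kb upstream. The Tuba3b domain also met the protein-coding gene Lmntd1. Of the sequence, 100% of the 31-base words read in the Tuba3a domain and 90.9% of those in the Tuba3b domain occur once in the genome. Tex101, a germ cell surface protein, had an intermediate body domain of 3.0 kb on chromosome 7 (24669901 to 24672900), from 3.77 to 6.77 kb. The RefSeq start of Tex101, 4.63 kb from the GENCODE start, lies inside it. Rpl10l, an autosomal retrocopy of Rpl10, had none.

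Promoter and body domains differed in sequence. The promoter domains had a median of 16.9% soft-masked (repeat) sequence, and the body domains 80.7%. The 22 promoter domains lay at 22 genes, while the 17 body domains came from 10 genes, and Sycp1 alone held 5 of the 17. Repeats made up at least 50% of 1 of 22 promoter domains (4.55%) and of 12 of 17 body domains (70.6%), against 24.8% and 52.1% over all protein-coding genes. There the median repeat shares were 20.4% for promoter and 53.5% for body domains. Single-copy sequence followed: a median of 97.7% of 31-base words in the promoter domains were unique in the genome, against 35.5% in the body domains. Over all protein-coding genes these medians were 90.9% and 63.3%. A read from a repeat may match many places in the genome, and the sources used here do not say how such reads were assigned.

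CpG content was higher in the germline promoter domains than in promoter domains in general. The median observed over expected CpG ratio was 0.465 (0.238 to 0.697), against 0.269 in all promoter domains and 0.230 in all domains. The germline promoter domains covered the gene start more often (90.9% against 52.2% over all protein-coding genes). The ratio was not compared at matched positions. Dazl and Taf7l were highest, at 0.696 and 0.697, followed by Sycp1 at 0.664, and Brdt was lowest at 0.238. GC content was 49.3% at the median, against 47.2% in all promoter domains. The median gap to the nearest other domain was 35.8 kb (2.7 to 443.4 kb), against 14.7 kb for all promoter domains.

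**Figure D4:**
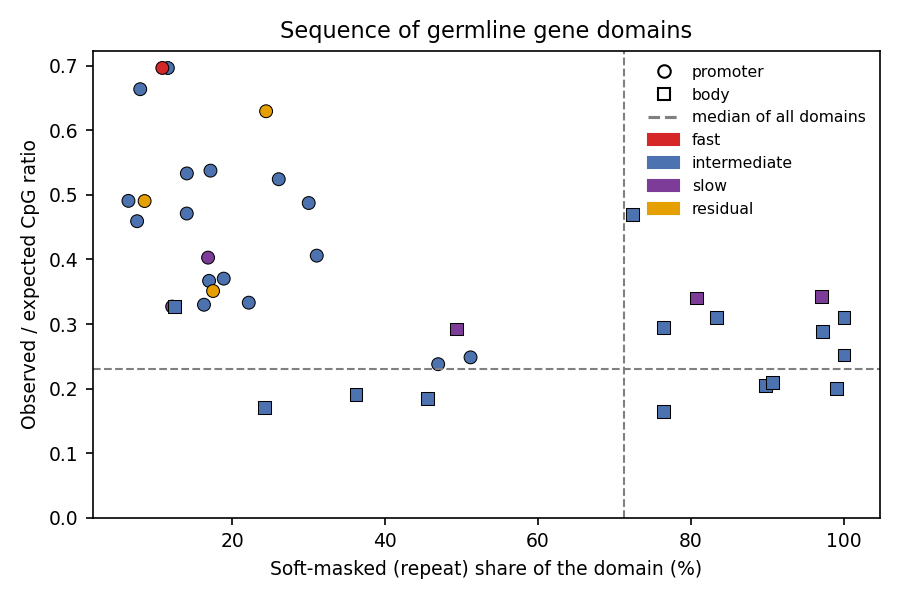
Observed over expected CpG ratio (y axis) against the soft-masked share in % (x axis) of the 39 domains on germline genes, circles for promoter and squares for body domains, coloured by decay class, with dashed lines at the medians of all domains (71.3% and 0.230). Promoter domains sit at the left, between 6.46% and 51.2%, and 12 of 17 body domains sit above 50%.

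Promoter windows of 300 bases (250 before to 50 after the RefSeq start) were available for 32 of the 38 genes and 16521 protein-coding genes. In the 32 windows the median CpG ratio was 0.744, against 0.602 over all. It was 0.780 in the 21 windows of germline genes with a promoter domain and 0.713 in the 11 without, while over all genes those with a promoter domain had a lower ratio, 0.426. Windows lie at RefSeq starts, while promoter domains are those at GENCODE starts. Tex101 therefore counts among the 11 without one, although its window, with a CpG ratio of 0.700 and none of the motifs below, lies in its body domain.

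Motif letters were counted in the same windows, on both strands. The E-box CACGTG was found in 14 of 32 windows (43.8%) against 8.09% of all, the E2F motif TCCCGC in 14 (43.8%) against 26.7%, and the STRA8 motif CNCCTCAG in 6 (18.8%) against 8.76%. Both the E2F motif and the E-box were in 7 windows (21.9%) against 2.83%. None of the 3 motifs contains another, though matches can overlap by a few bases. The E-box and the E2F motif each contain a CpG, and the median CpG count was 20.5 in the germline windows against 14 over all. The comparison was not matched for CpG. A match is a run of letters and not a bound site.

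**Figure D5:**
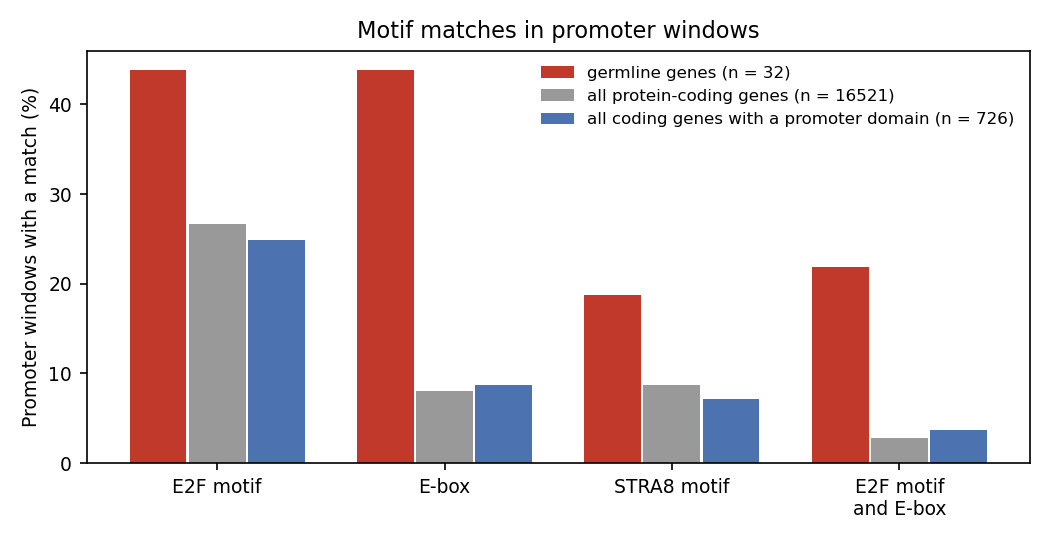
Share of promoter windows (y axis, %) with a match to each motif, for 32 germline genes, 16521 protein-coding genes and the 726 of these with a promoter domain. The E-box bar of the germline genes stands at 43.8%, against 8.09% and 8.68% in the other 2 sets.

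By group, the E-box was in 7 of 9 piRNA gene windows (77.8%), 4 of 12 meiosis windows (33.3%) and 3 of 11 of the other germ cell genes (27.3%). The piRNA windows with it were those of Ddx4, Fkbp6, Mael, Mov10l1, Stk31, Tdrd1 and Tdrd9. The E2F motif was in 7 of 12 meiosis windows (58.3%), 5 of 11 (45.5%) of the other germ cell genes and 2 of 9 (22.2%) of the piRNA genes. Of the windows with a promoter domain, 11 of 21 held the E-box (52.4%), against 3 of 11 without one (27.3%), and 10 of 21 held the E2F motif (47.6%), against 4 of 11 (36.4%). The STRA8 motif went the other way, with 3 of 21 (14.3%) against 3 of 11 (27.3%). Over all genes, the E-box was in 8.68% of windows with a promoter domain and 8.06% of those without. For the E2F motif these shares were 24.9% and 26.8%, and for the STRA8 motif 7.16% and 8.83%. These splits were not tested. Sycp2, Tdrkh, Syce1 and Dpep3 had a promoter domain with a match to none of the 3 motifs in the window, and Hormad1 and Sycp3 had both the E2F motif and the E-box and no domain.

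Further genes of the same pathways were counted in the same way. Of 30 other meiosis genes, 14 had any domain (46.7%) and 5 a promoter domain (16.7%), against 24.3% and 4.7% of all protein-coding genes. The domains at Mei1, needed for meiotic breaks, Syce3 and Tex12, central element proteins, and Gm4969 were intermediate, and that at Rnf212, a crossover factor, was slow. Of 18 other piRNA pathway genes, 5 had a domain (27.8%), close to the background of 24.3%, and 2 a promoter domain (11.1%). The promoter domain was residual at Tdrd5, a Tudor domain protein, and slow at Henmt1, the piRNA methyltransferase. The Tdrd5 domain reached only from 0.964 to 2.46 kb. Both promoter shares lie between the 4.7% of all protein-coding genes and the 57.9% of the 38, and these differences were not tested.

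Genes for repressors of germline promoters were mostly without domains. Of 18, 4 had a domain (22.2%), close to the background of 24.3%, and 2 a promoter domain (11.1%), against 4.7% of all protein-coding genes. E2f6, the E2F protein of the variant Polycomb complex, had an intermediate domain of 2.4 kb on chromosome 12 (16809301 to 16811700), from -1.66 to 0.737 kb. Dnmt3a, a DNA methyltransferase, had an intermediate one of 1.2 kb (3804601 to 3805800 on the same chromosome), from -1.41 to -0.207 kb. Setdb1, which is itself modified in these cells, had 3 domains in its body on chromosome 3, residual over 0.9 and 0.6 kb and intermediate over 1.5 kb.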

How the data were processed

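H3K9me3 and HP1b ChIP-seq of dTKO mouse embryonic stem cells was deposited as 216 sequencing runs. The file used here is the authors' deposited table of 43039 H3K9me3 domains, whose measurement is a decay class in words and no number. Per the submitters' processing notes, reads were handled by bedtools, deepTools, SAMtools 1.1 and Bowtie2 2.3.4.1, with the builds mm10, dm6, mm9 and GRCm38. How domains were called, where class limits lay and how reads with several matches were placed: not given in the sources used here. Signal tracks were not analysed here.

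The 42890 domains of the autosomes, X and Y were joined to GENCODE vM21 genes on mm10 by an overlap of 1 bp, printed 1-based. Promoters reached 1 kb to either side of the gene start. Sequence measures came from GRCm38.p6 and promoter windows from RefSeq on that build. The overlap counts were tested on simulated data, and the motif counts were not. Python 3.11.15, numpy 2.4.6, pandas 2.3.3, numba 0.67.0, pysam 0.24.0 and matplotlib 3.10.9 were used. No test was made, since the table has no value per sample. The genes and lists were chosen with earlier results of these data known. Every germline gene with a domain is described, and those without are named. Promoters are printed by the most promoter bases in a domain, and the order among ties was chosen after values were seen, as were the Taf7l and Spata22 promoters and the use of Asz1 and Ddx43 in place of Ddx4 and Stra8. Setdb1 and the genes that share a domain or a motif are named after their values were seen. Alternatives changed the overlap, the upstream reach, the promoter, the shortest domain and the chromosomes used.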

Additional observations from a re-analysis of the deposited data

How the results depend on the processing

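Of 51 alternative counts over the germline genes, 50 stayed within 1.5 times the count given above. The number of residual domains did not: it was 3, and 1 without chromosomes 8 and 11, since Meioc and Spata22 lie on 11. The number of genes with a promoter domain ran from 18 (without chromosomes 8 and 11, which hold 4 of the 22) to 24. It was 21 with an overlap of 300 bp or a promoter of 500 bp, which drop Tdrd6, and 19 where the domain's midpoint had to lie in the promoter, an alternative chosen after seeing the data, which drops Brdt, Tdrd6 and Tuba3b. The background moved by more than 1.5 times, from 4.7% of all protein-coding genes, under 3 of these choices. It was 1.44% with the midpoint rule. Counting any transcript start gave 24 against 7.56%, adding Tex101 and Zcwpw1, and a promoter of 5 kb gave 24 against 13.7%, adding Majin and Tex101. The number with any domain ran from 24 to 29. A stricter threshold for domains was not run, since the table holds no score. No paired analysis was possible because the table has no value per replicate. The depth behind each class is unknown.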

Other observations

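Over all 16521 promoter windows, the motif letters alone went with few promoter domains. Of 467 windows with both the E2F motif and the E-box, 27 had a promoter domain (5.78%), and 5 of those 27 were germline genes of the list. The share was 4.14% with the E-box alone, 3.9% with the E2F motif alone and 4.53% with neither. Of the 7 listed germline genes with both motifs, 5 had a promoter domain, as did 5 of the 11 with neither, 5 of the 7 with the E2F motif alone and 6 of the 7 with the E-box alone.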
